A study of Mus musculus with 8 samples.

Results

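The SLAM family receptors are described here in regulatory T (Treg) cells and related CD4 T cells of the mouse. The 6 genes, Slamf1, Cd48, Ly9, Cd84, Slamf6 and Slamf7, were chosen by name, with earlier results of these data known. All 6 were found among the 54837 Ensembl genes of the count table and passed the filter on low counts. RNA was sequenced from 8 libraries of CD4 cells sorted from spleen after 5 consecutive days of tamoxifen, which mice of both genotypes received. GFPhi (n = 3) holds TIM-3+ FLAG+ GFP+ FoxP3+ cells from Foxp3-eGFP-Cre-ERT2 mice crossed to FSF-TIM-3. GFPlow (n = 3) holds TIM-3+ FLAG+ cells of that cross that were GFP- and FoxP3-. WT (n = 2) holds GFP+ FoxP3+ cells that were TIM-3- and FLAG-, from mice with Foxp3-eGFP-Cre-ERT2 alone. All 8 libraries thus carry the eGFP and Cre-ERT2 allele, in which Foxp3 drives a tamoxifen-dependent recombinase, and only the transgenic mice carry the TIM-3 allele. For the strain, the age and the number of mice behind a library the sources used here give nothing. Where libraries of a group did not come from separate mice, p-values measure technical spread only.

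SLAM receptors are immunoglobulin-type surface proteins of blood cells, most of which bind a copy of themselves on a neighbouring cell. Their cytoplasmic tails carry tyrosine switch motifs that recruit the adaptor SAP, encoded by Sh2d1a, which brings in the kinase FYN, or, without SAP, inhibitory phosphatases. CD48 differs in that it is held by a lipid anchor without a tail and binds 2B4 and CD2. In CD4 T cells the family is known for its part in contact with B cells and in the development of innate-like T cells.

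The 6 genes form a cluster on chromosome 1 (GRCm38), within 364.5 kb from base 171588624 to base 171953170. In order of position they are Ly9 (minus strand, 171588624 to 171607410), Slamf7 (minus, 171632403 to 171653035), Cd48 (plus, 171682009 to 171705258), Slamf1 (plus, 171767127 to 171801184), Cd84 (plus, 171839697 to 171890718) and Slamf6 (plus, 171917515 to 171953170). Ly9 lies inside the span of Cd244a on the other strand with 0 exon bases shared. Slamf7 shares 423 of its exon bases (9.2%) with the antisense gene Gm37787. The strand setting of the counting is not known, so reads of such antisense partners cannot be told apart.

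The windows around the start sites of Slamf1 and of the members on either side of it, Cd48 and Cd84, are shown because Slamf1 alone of these 3 passed the test described below. They are the RefSeq windows (GRCm38.p6, plus strand) from 250 bases before to 50 bases after the start, at chr1:171766882-171767181 for Slamf1, chr1:171681742-171682041 for Cd48 and chr1:171839447-171839746 for Cd84. Capitals mark matches on either strand to any of 8 short motifs that were searched.
Slamf1: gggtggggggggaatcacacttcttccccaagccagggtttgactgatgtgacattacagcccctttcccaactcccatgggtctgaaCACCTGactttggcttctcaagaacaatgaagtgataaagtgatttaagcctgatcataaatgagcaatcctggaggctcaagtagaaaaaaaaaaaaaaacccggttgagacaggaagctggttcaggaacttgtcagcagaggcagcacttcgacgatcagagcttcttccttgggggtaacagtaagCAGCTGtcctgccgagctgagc
Cd48: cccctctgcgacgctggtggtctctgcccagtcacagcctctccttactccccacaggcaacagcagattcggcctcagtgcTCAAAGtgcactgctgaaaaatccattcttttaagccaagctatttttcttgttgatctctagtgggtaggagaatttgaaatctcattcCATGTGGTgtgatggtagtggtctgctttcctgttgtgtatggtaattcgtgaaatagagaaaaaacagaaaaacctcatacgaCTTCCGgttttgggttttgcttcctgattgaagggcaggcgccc
Cd84: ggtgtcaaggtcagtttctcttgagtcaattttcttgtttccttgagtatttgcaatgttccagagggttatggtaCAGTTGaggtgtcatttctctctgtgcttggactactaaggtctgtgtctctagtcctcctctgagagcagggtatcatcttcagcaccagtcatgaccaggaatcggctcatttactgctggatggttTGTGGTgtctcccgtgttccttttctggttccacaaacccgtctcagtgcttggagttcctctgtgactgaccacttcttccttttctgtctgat
The Slamf1 window holds 2 matches to the E-box CANNTG, the first of which (CACCTG) begins 162 bases before the start. The Cd48 window holds a Runx motif (TGTGGT) that overlaps an E-box by 4 bases, and the Cd84 window holds a Runx motif and an E-box apart from each other. The Cd48 window also has the TCF/LEF letters CTTTGA and the ETS letters CGGAAG, each on the minus strand. Among the 32851 windows of the RefSeq table, 72.3% held an E-box, 16.8% the Runx motif, 16.0% that of TCF/LEF and 16.9% that of ETS. Neither the forkhead letters TGTTTAC (in 3.6% of all windows) nor the STAT spacing TTCNNNGAA (8.3%) occurs in these 3 windows. The same holds for the GATA letters AGATAA (11.2%) and, among the motifs of NFAT, for GGAAAA (23.4%). The table covered 5 of the 6 members, and the windows of Slamf6 and Slamf7 held E-boxes alone. A match is a description of the letters and shows no binding.

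Before the results, WT library 1 has to be set apart. It held reads in 18599 genes, against 21248 to 22185 in the other 7 libraries, and its reads were 6.54% mitochondrial and 15.2% from ribosomal protein genes, against at most 2.78% and 6.97% elsewhere. Its correlation with other libraries across genes was 0.853 to 0.885 (Pearson, log2 scale), where all other pairs of libraries reached 0.925 or more. Total counts ran from 44446215 to 55388756. Xist, which female cells express, was at 236.7, 183.8 and 242.2 CPM (counts relative to the TMM-scaled library total) in GFPhi library 3, GFPlow library 3 and WT library 2 and at most 0.264 CPM elsewhere. The Y-linked Ddx3y was at 170.3 to 228.5 CPM in the other 5 libraries, without a read in both libraries numbered 3, and at 6.155 CPM in WT library 2, so the 2 WT libraries differ in these genes too. Foxp3 was at 60.2 to 80.9 CPM in GFPhi, 1.97 to 4.82 in GFPlow and 41.7 and 63.2 in WT, and Havcr2, which encodes TIM-3, at 1077 to 1791, 127.1 to 538.2 and 0.172 to 0.876, and the gates select on both. All 11 Treg markers listed rose in GFPhi over GFPlow, a direction the gate sets, and none of the 8 CD4 T cell markers passed in any comparison.

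Slamf1 was the member that differed between GFPhi and GFPlow. These TIM-3+ cells differ in FoxP3 and also in Havcr2, at 1077 to 1791 CPM in GFPhi and 127.1 to 538.2 CPM in GFPlow. The part of either difference in the Slamf1 values was not tested. The gene encodes SLAM (CD150), a self-binding receptor that activated T cells carry at higher levels. Its level was 191.1, 151.2 and 161.7 CPM in GFPhi libraries 1 to 3 and 58.8, 59.0 and 65.8 CPM in GFPlow. Every GFPhi library therefore stood above every GFPlow library, with no overlap. The means were 168.0 ± 20.7 CPM (SD, n = 3) and 61.2 ± 3.99 CPM (SD, n = 3). The fitted fold was 2.74 (log2 fold change 1.46 ± 0.28, SE; 95% interval 1.75-fold to 4.31-fold). By the quasi-likelihood test of edgeR, with Benjamini-Hochberg adjustment over 18851 genes, the adjusted p was 0.0405. In bulk samples, fewer cells that express a gene and less RNA per cell cannot be told apart.

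The size of the Slamf1 difference held in every fit run, while its call did not. Adding a block for the replicate number gave a log2 fold change of 1.47 and an adjusted p of 0.13 by edgeR, which called 0.965% of all genes in that fit. That block also joined WT libraries 1 and 2 to transgenic libraries 1 and 2, though WT cells came from mice of another genotype. The numbers of the WT libraries have no known link to those of the others. DESeq2 called Slamf1 (adjusted p = 6.61e-05, with 7.31% of genes called), as did limma voom with sample quality weights (3.99e-05, with 12% called), which gave the WT libraries weights of 0.133 and 0.181 and the others 1.62 to 2.30. In the 6 transgenic libraries alone edgeR's adjusted p was 0.000183 (12.3% of genes called), and 0.0011 with the block (10.3% called). Leaving out either WT library gave an adjusted p of 0.000189 (WT library 1, with 9.66% of genes called) or 0.000175 (WT library 2, with 9.64% called). The call was lost without any 1 of the 6 transgenic libraries, with an adjusted p of 0.18, 0.125 and 0.130 without GFPhi libraries 1, 2 and 3 and of 0.181, 0.186 and 0.150 without GFPlow libraries 1, 2 and 3. Over these fits with 1 library left out the log2 fold change ran from 1.35 to 1.53.

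**Figure D1:**
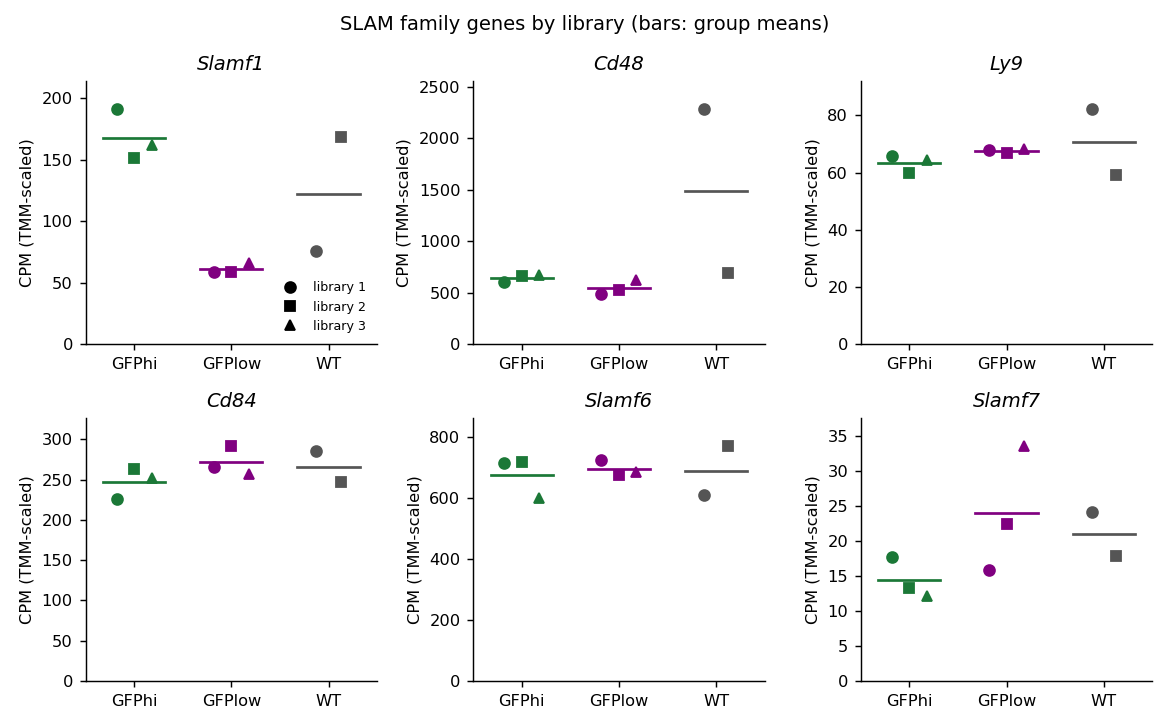
Levels of the 6 SLAM family genes in CPM (TMM-scaled, vertical axes from 0) in each library of GFPhi, GFPlow and WT, with symbols for the library number and bars for group means. Slamf1 separates GFPhi (151.2 to 191.1 CPM) from GFPlow (58.8 to 65.8 CPM), and Cd48 is at 2284 CPM in WT library 1.

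One of 6 members, Slamf1, was thus called between GFPhi and GFPlow, where 2.26% of all genes tested were called and 1.63% were called higher in GFPhi. The members were chosen with earlier results of these data known, so setting them beside these shares is not a blind comparison. The other 5 members did not pass. Their log2 fold changes lay between -0.74 and 0.24, and the median over the 6 was -0.06, beside a median of 0.01 over all genes. Ranges of GFPhi and GFPlow stood apart for 2 of the 6, Slamf1 (higher) and Ly9 (lower), and for 30% of all genes (16% higher, 14% lower).

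Slamf6 encodes Ly108, a receptor of naive and stem-like T cells. It had 714.9, 717.7 and 599.2 CPM in GFPhi and 726.0, 675.0 and 684.8 CPM in GFPlow. The ranges overlapped, and the 95% interval of the ratio ran from 0.729-fold to 1.30-fold (log2 fold change -0.04 ± 0.18, SE). WT lay on both sides, at 609.8 and 771.7 CPM.

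Cd84, a self-binding receptor shared by T, B and myeloid cells, had 225.6, 263.5 and 251.9 CPM in the GFPhi libraries and 265.9, 291.9 and 257.4 CPM in those of GFPlow. Only GFPhi library 2 reached into the GFPlow range. The interval of the ratio was 0.703-fold to 1.18-fold (log2 fold change -0.14 ± 0.16, SE). In WT the gene had 285.9 and 246.6 CPM.

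Ly9 encodes CD229, another self-binding member. Its levels were the most even of the 6 in the transgenic cells, 65.9, 60.0 and 64.6 CPM in GFPhi and 67.8, 66.8 and 68.4 CPM in GFPlow. All 3 GFPlow libraries lay just above all 3 GFPhi libraries, by a log2 fold change of -0.09 ± 0.17 (SE) that did not pass the test (adjusted p = 0.9999 by edgeR). The interval of the ratio was 0.718-fold to 1.23-fold. WT libraries 1 and 2 were at 82.2 and 59.1 CPM.

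Cd48 encodes the tailless member that binds 2B4 and CD2. GFPhi libraries had 602.0, 660.2 and 676.8 CPM and GFPlow libraries 488.8, 530.4 and 621.4 CPM, with GFPlow library 3 inside the GFPhi range. The log2 fold change was 0.24 ± 0.38 (SE), with an interval of 0.641-fold to 2.18-fold. The spread is shared with WT, where Cd48 was at 2284 and 689.8 CPM, and in the 6 transgenic libraries alone the value was 0.24 ± 0.09 (SE, adjusted p = 0.154 by edgeR).

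Slamf7, a receptor best known from NK and plasma cells, was the member with the lowest level. It had 17.7, 13.4 and 12.2 CPM in GFPhi and 15.9, 22.5 and 33.6 CPM in GFPlow, where library 3 was highest. The groups overlapped through GFPlow library 1. Its change of -0.74 ± 0.31 (log2, SE) had an unadjusted p of 0.0454 and an adjusted p = 0.407 by edgeR, and without GFPlow library 3 it was -0.41. The 9 NK markers listed summed to 7.77 to 10.2 CPM in GFPhi and to 51.3, 44.7 and 144.7 CPM in GFPlow libraries 1, 2 and 3, and 2 of the 7 tested (Klrb1c and Prf1) were called lower in GFPhi. Of the defining receptors, Klra4 had reads in GFPlow library 3 alone (1.14 CPM), and Ncr1 had 7.81 CPM there and 0 in the other 2 GFPlow libraries. Klra8, Klre1, Gzma and Tyrobp were also highest in GFPlow library 3. Prf1 and Eomes were instead present in all GFPlow libraries, at 22.6, 24.5 and 27.4 CPM and at 10.4, 7.40 and 7.52 CPM. Klrb1c had 10.05, 11.1 and 31.4 CPM there. Each of these last genes was above its GFPhi range in every GFPlow library, though Eomes was not called. The 7 plasma cell markers summed to 172.6 to 203.8 CPM in GFPhi and to 123.0 to 145.5 CPM in GFPlow, most of it Xbp1, and 0 of the 5 tested were called. Jchain, the joining chain of antibodies, was at 23.5 CPM in GFPlow library 2 and at most 2.38 CPM elsewhere. The part of NK and plasma cells in the Slamf7 values was not tested. The 9 myeloid markers summed to 246.6 CPM in GFPlow library 3 and to 6.96 to 42.6 CPM in the other 7 libraries, with none called in any comparison.

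Markers of other cells that can carry Slamf1 were also read beside it. Of the defining B cell genes, Ms4a1 had at most 0.828 CPM and Ebf1 at most 0.0188 CPM in any library. The 10 B cell markers summed to 47.0 to 54.7 CPM in GFPhi and to 8.50 to 18.6 CPM in GFPlow. Cd79b, the 1 of 5 tested that was called, made up 43.2 to 50.1 CPM of that in GFPhi and 3.03 to 11.2 CPM in GFPlow, where Cd22 had 2.76 to 5.42 CPM. The 7 platelet markers summed to 0.445 to 0.640 CPM in GFPhi and to 0.336 to 6.60 CPM in GFPlow, with 42.7 CPM in WT library 1 and 4.07 CPM in WT library 2. None of the 5 platelet markers tested was called in any comparison. The part of these cells in the Slamf1 values was not tested.

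**Figure D2:**
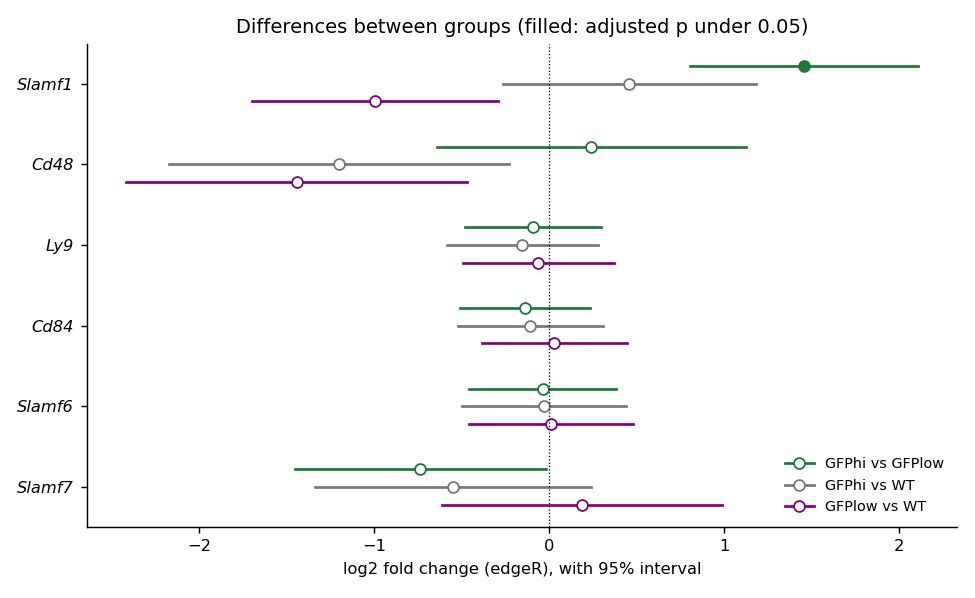
Log2 fold changes of the 6 members in the 3 comparisons (horizontal axis, edgeR, with 95% intervals), filled where the adjusted p was under 0.05. The Slamf1 value of 1.46 for GFPhi against GFPlow is the 1 filled point, and the intervals of Ly9, Cd84 and Slamf6 span 0 in all 3 comparisons.

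Set against its neighbours within a library, Slamf1 showed the same order without any scaling between libraries. For every read of Cd84, the next member along the chromosome, there were 0.847, 0.574 and 0.642 reads of Slamf1 in GFPhi and 0.221, 0.202 and 0.256 in GFPlow. The ratio of Slamf1 to Slamf6 was 0.267, 0.211 and 0.270 in GFPhi and 0.0810, 0.0874 and 0.0961 in GFPlow. Mean ratios were 2.31-fold (to Cd48), 2.92-fold (Ly9), 3.01-fold (Cd84), 2.82-fold (Slamf6) and 4.4-fold (Slamf7) higher in GFPhi. For each of the 5 ratios all GFPhi libraries lay above all GFPlow libraries. All 5 share the Slamf1 counts, which already separated the groups, so the ratios and their tests restate that separation and add no support. In exact two-sided permutation tests of their logarithms p was 0.1 for each, and 0.1 after Benjamini-Hochberg adjustment over the 5, which is the smallest that 3 against 3 libraries can give. In WT library 2 the ratio to Cd84 was 0.682, inside the GFPhi range, and in WT library 1 it was 0.266, just above the GFPlow range.

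**Figure D3:**
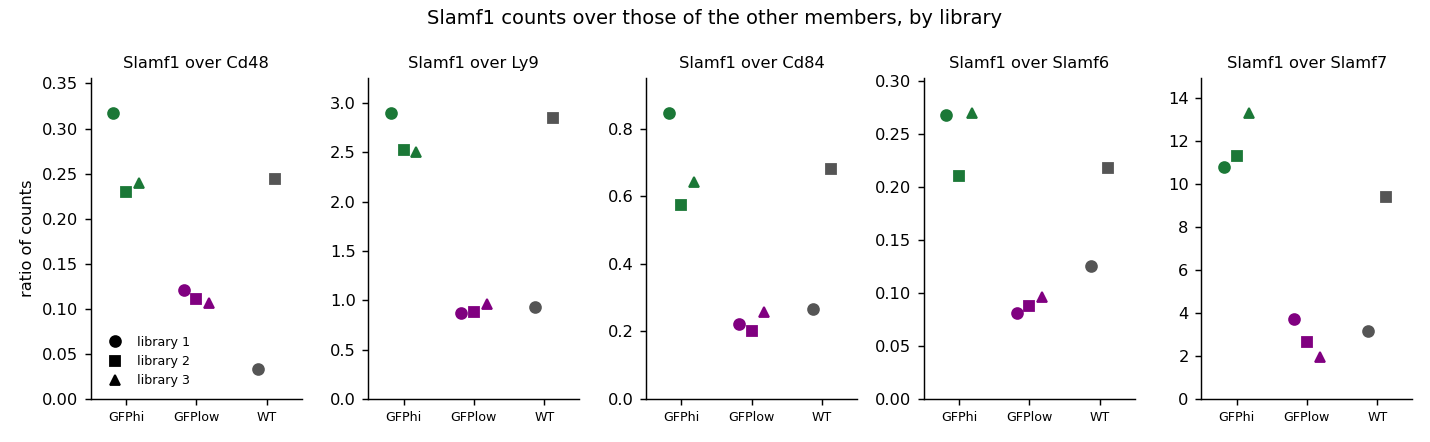
Counts of Slamf1 divided by those of each other member in the same library (vertical axes from 0), for GFPhi, GFPlow and WT. All 3 GFPhi libraries lie above all 3 GFPlow libraries in each panel, and the WT libraries lie apart from each other, for example at 0.266 and 0.682 for Cd84.

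The levels of different members were compared per kb of merged exons, which assumes even coverage along the annotated exons. In GFPhi the order was Cd48 (543.6 ± 33.0 CPM per kb, SD, n = 3), Slamf6 (62.5 ± 6.24), Cd84 (39.4 ± 3.10), Slamf1 (27.3 ± 3.36), Ly9 (19.2 ± 0.931) and Slamf7 (3.15 ± 0.639). No neighbours in that order overlapped between libraries. In GFPlow the levels per kb were 459.9 ± 57.0 for Cd48, 64.2 ± 2.5 for Slamf6, 43.3 ± 2.86 for Cd84, 20.4 ± 0.238 for Ly9, 9.95 ± 0.648 for Slamf1 and 5.25 ± 1.96 for Slamf7, again without overlap. Slamf1 and Ly9 thus changed places, Slamf1 being above Ly9 in each GFPhi library and below it in each GFPlow library. In WT library 2 Slamf1 was above Ly9 (27.3 and 17.9 CPM per kb), and in WT library 1 below it (12.4 and 24.8).

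**Figure D4:**
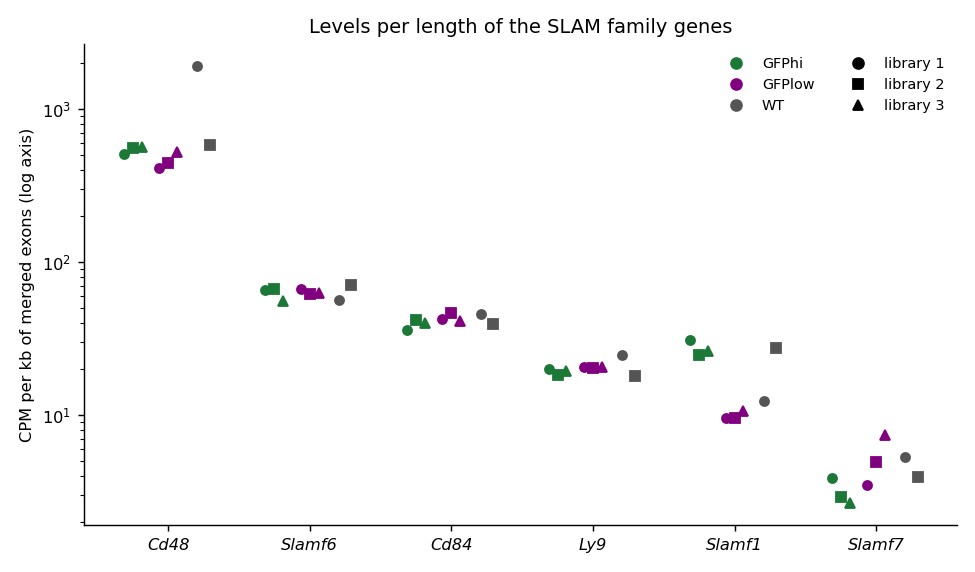
Levels of the members in CPM per kb of merged exons (log axis) in each library, coloured by group, with symbols for the library number, ordered by their mean in GFPlow. Slamf1 lies above Ly9 in GFPhi (24.6 to 31.1 against 18.1 to 19.9) and below it in GFPlow (9.56 to 10.7 against 20.2 to 20.7).

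GFPhi and WT are both FoxP3+ and differ in the TIM-3 allele and in the gates on TIM-3 and FLAG. None of the 6 members was called, nor was any gene (0%), with 13.7% of genes at an unadjusted p under 0.05. DESeq2 called Cd48 (adjusted p = 0.0461, with 15.7% of 2039 genes called after its own filter), and limma voom and the replicate block called no gene. Cd48 and Slamf7, 2 of the 6, were lower in every GFPhi library than in both WT libraries, and ranges stood apart for 28.1% of all genes (12.6% lower in GFPhi). The median log2 fold change of the 6 was -0.13, beside 0.08 for all genes.

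Slamf1 was at 76.2 CPM in WT library 1 and at 168.2 CPM in WT library 2. The GFPhi range of 151.2 to 191.1 CPM held WT library 2 and lay above WT library 1. The log2 fold change over WT was 0.46 ± 0.31 (SE, adjusted p = 0.470 by edgeR), -0.0021 without WT library 1 and 1.17 without WT library 2 (adjusted p = 0.000488). The fit without WT library 2, which leaves the library that stands apart as the control, called 40.1% of all genes. Cd48 was likewise decided by 1 library. Against WT it was at -1.20 ± 0.42 (log2, SE; adjusted p = 0.348 by edgeR), at -0.09 without WT library 1 and at -1.80 without WT library 2 (adjusted p = 1.32e-05 by edgeR). Slamf7 had 24.2 and 17.9 CPM in WT and differed by -0.55 ± 0.34 (log2, SE; adjusted p = 0.447 by edgeR). For Ly9, Cd84 and Slamf6 the values in WT overlapped those of GFPhi, with log2 fold changes of -0.15 ± 0.19, -0.11 ± 0.18 and -0.03 ± 0.20 (SE). Against WT library 1 alone, where 40.1% of genes were called, the Ly9 value was -0.35 (adjusted p = 0.0264 by edgeR).

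The comparison of GFPlow with WT shares its libraries with the other comparisons, and its cells differ in TIM-3 and in FoxP3. No member was called by edgeR, where 3.3% of all genes were called, nor with the replicate block (0.838% of genes) or by limma voom (0.382%). DESeq2 called 2 members, Slamf1 and Cd48, and 18.3% of genes. Slamf1 and Cd48 were lower in each GFPlow library than in both WT libraries, and 40.3% of all genes had no overlap (19.2% lower in GFPlow). The Slamf1 log2 fold change was -1.0 ± 0.31 (SE, adjusted p = 0.116 by edgeR). It was -1.45 without WT library 1 (adjusted p = 0.00116, with 5.88% of genes called) and -0.29 without WT library 2 (adjusted p = 0.134), and DESeq2 with all libraries gave an adjusted p of 0.0228. The Cd48 value was -1.44 ± 0.42 (SE, adjusted p = 0.108 by edgeR, 0.0125 by DESeq2), and -0.33 without WT library 1. Without WT library 2, where 43.9% of genes were called, the Cd48 value was -2.04 (adjusted p = 5.82e-06 by edgeR). Ly9, Cd84, Slamf6 and Slamf7 had log2 fold changes of -0.06 ± 0.19, 0.03 ± 0.18, 0.01 ± 0.20 and 0.19 ± 0.35 (SE), and WT overlapped GFPlow for each.

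Among other genes of the family and its ligands, Cd2, an adhesion receptor that binds CD48, had the highest level. Its GFPhi libraries had 1172, 1364 and 1388 CPM and its GFPlow libraries 925.6, 926.0 and 985.0 CPM, without overlap. Its log2 fold change of 0.47 ± 0.20 (SE) had an adjusted p = 0.417 by edgeR with all libraries, and in the 6 transgenic libraries alone an adjusted p of 0.00537. In WT it had 2050 and 1461 CPM. GFPlow was below WT by -0.89 ± 0.22 (SE, adjusted p = 0.0748), which edgeR called without WT library 1 (-0.62, adjusted p = 0.00995) and without WT library 2 (-1.09, adjusted p = 4.42e-05). Cd244a encodes 2B4, the other binding partner of CD48, and had 0.696 to 1.65 CPM in GFPhi, 0.523 to 3.91 CPM in GFPlow and 6.59 and 0.397 CPM in WT. Its log2 fold changes were -0.78 ± 1.06 (GFPhi against GFPlow), -1.75 ± 1.17 (GFPhi against WT) and -0.97 ± 1.16 (GFPlow against WT; SE), none called. Slamf8 and Slamf9, members of myeloid cells, reached at most 1.14 CPM and 0.621 CPM and had no read in 3 libraries each. A library without a read allows up to 0.0517 to 0.0973 CPM (3 counts), a limit that covers counting error only, since reads without molecular identifiers are not single molecules.

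The signalling genes of the receptors were a list of 19, of which 18 were tested. With all 8 libraries edgeR called 0 of the 18 in each comparison, where it called 2.26%, 0% and 3.3% of all genes. By the same test 0, 1 and 5 of the 18 had an unadjusted p under 0.05. Such values were common among all 18851 genes. In GFPhi against WT, with 1 of the 18, 13.7% of all genes had one. In GFPhi against GFPlow, with 0 of the 18, at least 2139 genes had one, the rank of Cd2 by unadjusted p (0.0474). In GFPlow against WT, with 5 of the 18, at least 4636 genes had one, the rank of Cd8a (0.0481). Neither Cd2 nor Cd8a is on the signalling list. The log2 fold changes of the 18 in GFPhi over GFPlow were above 0 for 11 and below 0 for 7, with a median of 0.13. The adaptor gene Sh2d1a had 228.1, 237.8 and 212.5 CPM in GFPhi against 193.0, 213.3 and 195.8 CPM for GFPlow, with 1 GFPlow library just inside the GFPhi range. It was at 1141 CPM in WT library 1 and at 280.0 CPM in WT library 2. The log2 fold change of GFPlow against WT was -1.82 ± 0.47 (SE, adjusted p = 0.0837 by edgeR), and without WT library 1 it was -0.47 (adjusted p = 0.0249). Sh2d1b1, which encodes the related adaptor EAT2 of NK cells, had at most 0.620 CPM, and Sh2d1b2 no read in any library.

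In the 6 transgenic libraries alone edgeR called 3 of the signalling genes, near the 12.3% of all genes called in that fit, and they are named for that reason. Rasa1, which switches off Ras, was higher in GFPhi (log2 fold change 0.46, adjusted p = 0.0254), with 102.3, 103.3 and 90.2 CPM in GFPhi and 71.6, 80.0 and 63.9 CPM in GFPlow. Prkcq, a kinase downstream of SAP and FYN, was lower in GFPhi (-0.33, adjusted p = 0.0275), with 323.4, 364.6 and 398.9 CPM against 461.2, 456.0 and 452.7 CPM. Lck, the Src-type kinase of the T cell receptor, was lower too (-0.27, adjusted p = 0.0244), at 1977, 2057 and 1873 CPM against 2483, 2454 and 2205 CPM. Ranges of GFPhi and GFPlow stood apart for these 3 and for 7 of the 18 in all, against 30% of all genes. With the replicate block added, Ptpn6, the phosphatase SHP1, was a further gene called lower (-0.31, adjusted p = 0.0392). Fyn itself had 196.9, 144.3 and 129.1 CPM in GFPhi against 142.6, 130.7 and 103.0 CPM for GFPlow, with overlap.

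**Figure D5:**
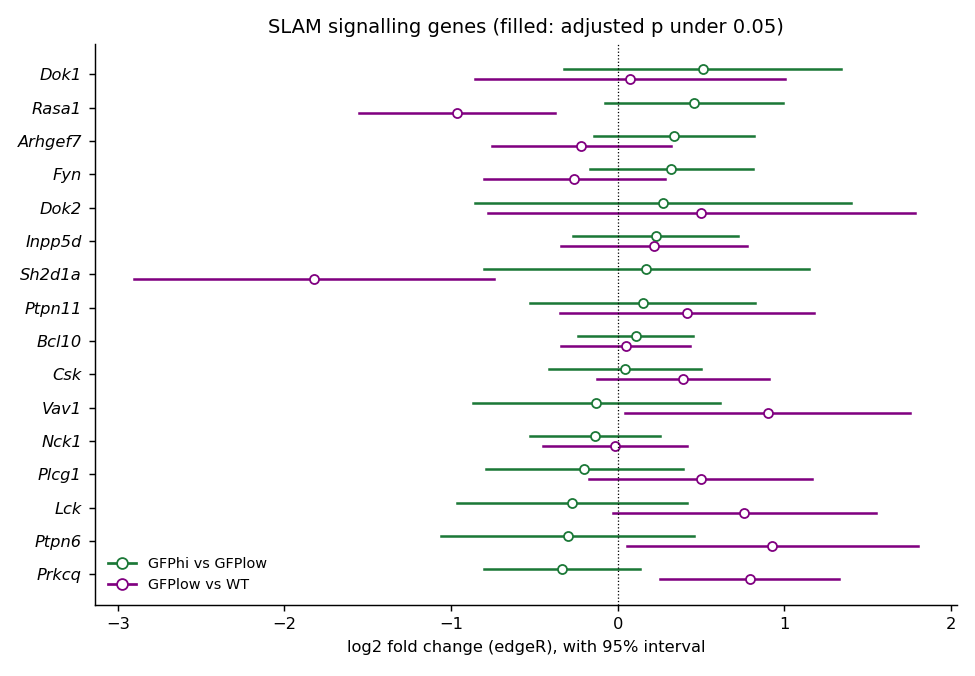
Log2 fold changes (horizontal axis, edgeR with all 8 libraries, 95% intervals) of the 16 signalling genes with a mean above 1 CPM, for GFPhi against GFPlow and GFPlow against WT. No point is filled, as none had an adjusted p under 0.05, and Sh2d1a lies farthest from 0 at -1.82 in GFPlow against WT.

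Genes with a pattern most like each member were sought among 8074 other abundant protein-coding genes, by Pearson's r of log2 CPM over all 8 libraries, which is a description of these libraries that shares their depth and scaling. Closest to Slamf1 were Cyfip1 (r = 0.998), a regulator of actin, Il2rb (r = 0.997), the IL-2 receptor beta chain, and Tnfrsf1b (r = 0.993), TNF receptor 2. Over the 6 transgenic libraries r was 0.998, 0.997 and 0.993, and 38 genes in all had an r above 0.95. A like difference between GFPhi and GFPlow alone can give such r for Slamf1, so they do not show joint variation within a group. For Cd48 the closest were Ndufb9, Tsn and Edf1 (r = 0.996 to 0.998), and 762 genes exceeded 0.95. Its range over libraries is set by the 2284 CPM of WT library 1, and over the 6 transgenic libraries these r were 0.927 to 0.973. Ly9 was closest to Lman2, Tmem156 and Tmed9 (r = 0.977 to 0.984), with 14 genes above 0.95. The most like Cd84 were Zfp273 (0.952), Chmp3 (0.942) and Tlk1 (0.918), and the most like Slamf6 were Ccdc137 (0.95), Oma1 (0.896) and Wdr5b (0.888). Slamf7 had Morf4l1 (0.904), Hs2st1 (0.904) and Carf (0.884), and no gene above 0.95.

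Around the cluster, 41 other protein-coding genes lie between the members or within 500 kb of them, and 32 of these were tested. None was called in any comparison, and their median log2 fold change in GFPhi over GFPlow was 0.02. Of the protein-coding genes tested in this stretch, members included, Slamf1 in GFPhi against GFPlow was thus the 1 called by edgeR with all 8 libraries.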

How the data were processed

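The measurement was RNA sequencing of 8 libraries (3 GFPhi, 3 GFPlow, 2 WT), grouped by their titles. The authors deposited 1 table of raw counts per Ensembl gene. HISAT2 2.1.0, SAMtools 1.9, HTSeq 0.11.2, edgeR, R 4.0 and build GRCm38 are named in the submitters' processing notes. Annotation, strandedness and filtering: not given in the sources used here. Libraries were prepared with SMART-Seq HT and Nextera XT kits per the labels' protocols. GENCODE vM21 (GRCm38) gave symbols for 54808 of 54837 identifiers.

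From the counts, edgeR 4.0.16 (R 4.3.3) kept 18851 genes by filterByExpr, scaled libraries by TMM and fitted all 8 with 1 mean per group (robust quasi-likelihood, 5 residual degrees of freedom). Tests were two-sided, with Benjamini-Hochberg adjustment over all genes and a threshold of 0.05. SEs and 95% intervals come from the F statistic. DESeq2 1.42.0, limma voom 3.58.1 with sample quality weights, other scalings, no filter, fewer libraries and a replicate block were alternatives; the block within the 6 transgenic libraries was added after seeing the data. The fit was tested on simulated data with 200 changed genes. Python 3.11.15, pandas 2.3.3 and matplotlib 3.10.9 made tables and figures.

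GFPhi and GFPlow libraries share the numbers 1 to 3 in their titles. Deviations from the group means over 8882 genes correlated at 0.170, 0.131 and 0.314 within numbers, and at -0.219 to 0.0842 across them. The numbers were taken to pair the samples, which these values cannot settle. Deviations cancel out within a group, which lowers the values across numbers, and both libraries numbered 3 have Xist without Ddx3y. Between numbers 1 and 2 the values across were 0.0713 and 0.0842. The block over all libraries applied the numbers to WT as well. All members and the other genes of the family were named, with the SAP and EAT2 adaptors, signalling genes past the threshold and the 3 genes most like each member (mean log2 CPM above 3, prior count 2). The members and lists were chosen with earlier results of these data known. The list entry Cd244 was read as Cd244a, its symbol in GENCODE.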

Additional observations from a re-analysis of the deposited data

How the results depend on the processing

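For GFPhi against GFPlow, the count of members called was 1 in the fits with other scaling, no filter, DESeq2, voom or only the libraries compared, 0 with the replicate block, and 0 to 1 with 1 library left out. Signalling genes called were 2 by voom, 3 with only the libraries compared, 4 with these and the replicate block, and 0 to 3 with 1 library left out. All genes called were 426, and 1375 by DESeq2, 2271 by voom, 182 with the replicate block, 2105 with only the libraries compared, 1752 with these and the block, and 105 to 1984 with 1 library left out. For GFPhi against WT, DESeq2 called 1 member, 1 signalling gene and 320 genes, no filter gave 1 gene, and leaving out 1 library gave 0 to 3 members, 0 to 13 signalling genes and 0 to 8234 genes, the highest without WT library 2. For GFPlow against WT (623 genes), DESeq2 called 2 members, 3 signalling genes and 3243 genes, voom 72 genes, the replicate block 158, only the libraries compared 33, and leaving out 1 library gave 0 to 1 members, 0 to 11 signalling genes and 213 to 9002 genes. The replicate block changed no call of a member other than that of Slamf1 in GFPhi against GFPlow. The cause of these differences was not tested. With 1 WT library left out, its lone partner was taken to have the spread of GFPhi and GFPlow.

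The values of Cd244a, with SEs above 1, and several values near 0 changed sign, as did that of Slamf1 in GFPhi against WT. In GFPhi against WT Slamf6 was 0.0055 without a filter and 0.0203 with the replicate block. In GFPlow against WT Slamf6 was -0.0033 with median-of-ratios scaling, -0.136 with upper-quartile scaling, -0.0034 by DESeq2 and -0.0181 by voom, Cd84 was -0.139 with upper-quartile scaling, and by voom Ly9 was 0.0264 and Cd244a 0.206. Upper-quartile scaling moved the median of all genes by -0.13 in GFPhi against WT and by -0.142 in GFPlow against WT. With 1 library left out, GFPhi against GFPlow ranged from -0.0814 to 0.0433 for Slamf6 and from -1.29 to 0.541 for Cd244a. GFPhi against WT ranged from -0.0021 to 1.17 (Slamf1), -0.346 to 0.103 (Ly9), -0.184 to 0.0016 (Cd84), -0.189 to 0.178 (Slamf6) and -2.64 to 1.37 (Cd244a). GFPlow against WT ranged from -0.257 to 0.202 (Ly9), -0.0493 to 0.146 (Cd84), -0.144 to 0.213 (Slamf6), -0.137 to 0.426 (Slamf7) and -2.29 to 2.17 (Cd244a). Slamf8, Slamf9 and Sh2d1b1 had at most 66 counts in a library, and Sh2d1b2 had 0.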
